A study of Mus musculus with 22 samples.

Results

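Enzymes of DNA methylation, proteins of heterochromatin and proteins of the nuclear envelope were followed in sorted cells of the mouse retina as a set of 49 named genes. A member was a gene of the deposited expression table whose Ensembl identifier carries 1 of the 49 symbols, and 48 were found among the 13812 genes of the table. Hmga1 was not analysed here. A gene entered the tests if some group had both of its libraries at a log2 CPM of 0 or more. Uhrf1 failed this filter, so 47 members were tested. CPM, the unit of the table before its log2, is a gene's read count scaled to the library size as the authors set it. The series held 22 RNA sequencing libraries in 11 groups of 2. Rods, cones and bipolars came from retinas of 3 ages, P7, P13 and P30 in postnatal days. Rod bipolars and cone bipolars were sorted at P13 alone. The design text of the series names the bipolars as ON-bipolar cells, and the labels give no genotype, strain, sex or reporter. Nor do they say whether replicate libraries stand for separate or pooled animals, so the p-values measure only the spread between these libraries.

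Most nuclei keep heterochromatin, the compact and silent part of the genome, at the nuclear envelope. It is held there by the lamin B receptor Lbr and by A-type lamin, the product of Lmna. Mouse rods are known to turn this order round as they mature: heterochromatin gathers in the middle of the nucleus and open chromatin lies at its edge, while cones and bipolars keep conventional nuclei. Heterochromatin is marked by methylated H3K9, which Suv39h enzymes write and HP1 proteins bind, by H3K27 methylation from Polycomb repressive complex 2, and by DNA methylation, which Dnmt enzymes write and Tet enzymes oxidise.

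Recovered reads ran from 14.4 to 54.4 Mreads (mega-reads) per library. Replicate libraries correlated at 0.849 to 0.971 across genes, and 3 reads, taken as the floor of detection, were worth 0.0541 to 0.170 CPM in a single library. Such floors cover counting error only. Rod markers summed to 12315 to 37225 CPM over the rod libraries, against 279 to 1345 CPM over the cone libraries and 83.4 to 273 CPM over the bipolar libraries. The same sum was higher in the P13 rod bipolar libraries, 389 and 696 CPM, and in the cone bipolar libraries, 562 and 1020 CPM. The 5 Müller glia markers, Glul at their head, summed to 3861 and 6001 CPM in the P30 bipolar libraries, against 159 and 164 CPM at P7. In the P30 cone libraries they summed to 596 and 782 CPM, against 157 and 184 CPM in P7 cones and 123 and 234 CPM in P30 rods. Red blood cell markers summed to 41.8 and 55.8 CPM in P30 cones (5.21 and 114 CPM at P7) and to at most 0.204 CPM in P30 rods. Bipolar markers summed to 212 to 495 CPM over the cone libraries and to 3.48 to 22.6 CPM over the rod libraries. Mitochondrial reads took 6.39% and 9.88% of the rod libraries at P30, against 28.6% and 38.7% of the cone libraries of that age. In sorted bulk samples fewer cells of a type and less RNA per cell cannot be told apart.

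A gene was called where the limma adjusted p (Benjamini-Hochberg over 13405 genes) was under 0.05 and the log2 fold change reached 1 or -1. The model takes the spread of a gene over all 11 groups, so its SE is the same at each age. Between replicates the median SD on the log2 scale was largest in the P13 rod pair, 0.492, against 0.130 in P7 bipolars. Against cones, rods at P7 had 7 of 47 members called, 5 higher and 2 lower, where 12.8% of all genes were called (3.30% higher and 9.52% lower). At P13 the count was 17, with 9 higher and 8 lower, beside 21.2% of all genes (7.10% higher and 14.1% lower). At P30 it was 12, with 9 higher and 3 lower, beside 20.0% of all genes (9.98% higher and 10.0% lower). Without rod replicate 1, cone replicate 1 or cone replicate 2 the count at P7 was 3, 4 and 4. The called members made up 14.9%, 36.2% and 25.5% of those tested at the 3 ages, so at P7 their share was near that of all genes. The median log2 fold change of the members was 0.10, 0.13 and 0.22, beside -0.16, -0.11 and 0.14 over all genes.

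Set against bipolars, rods had 14 members called at P7, 7 in each direction, where 28.4% of all genes were called (12.0% higher and 16.5% lower). At P13 there were 22, with 12 higher and 10 lower, beside 40.3% of all genes (15.0% higher and 25.2% lower). At P30 there were 16, with 12 higher and 4 lower, beside 37.7% of all genes (15.7% higher and 22% lower). These are 29.8%, 46.8% and 34.0% of the tested members, near the share of all genes at each age, and are not read as a difference from it. The members' median log2 fold change was -0.03, 0.01 and 0.11, beside -0.19, -0.27 and -0.08 over all genes. The P30 bipolar libraries are those with the highest Müller glia sum. The P30 cone libraries have the high mitochondrial share and a Müller glia sum above that of P30 rods. The part of any of these in the differences was not tested, nor that of the bipolar markers in cone libraries. The comparisons with cones and with bipolars use the same rod libraries. The split between higher and lower members moved when the authors' scaling was replaced by plain read totals: it became 4 higher and 3 lower at P7 and 17 higher and 2 lower at P30 against cones, and 5 higher and 9 lower at P7 and 8 higher and 14 lower at P13 against bipolars. That change moved the median of all genes by 0.60 for rods minus cones at P30, by -0.18 and -0.49 for rods minus bipolars at P7 and P13, and by -0.12 for rods minus bipolars at P30.

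Members whose rod libraries both lay above every cone and bipolar library of the same age numbered 12 at P7, 15 at P13 and 16 at P30. Over all genes that held for 16.7%, 17.6% and 21.1%, and the members' shares were 25.5%, 31.9% and 34.0%. Suv39h2, Eed, Samd7, Samd11, Kdm5b, Kdm6a, Hmgn1, Hmgn2 and Ctcf were in this group at all 3 ages. Members with both rod libraries below all others numbered 8, 11 and 8, or 17.0%, 23.4% and 17.0%, beside 23.0%, 20.3% and 17.4% of all genes, and Tet1, Lmna, Cbx5, Hmgn3 and Smarca4 were among them at each age. The share of all genes that stayed above, or below, at all 3 ages was not counted, so these names have no such share beside them.

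**Figure D1:**
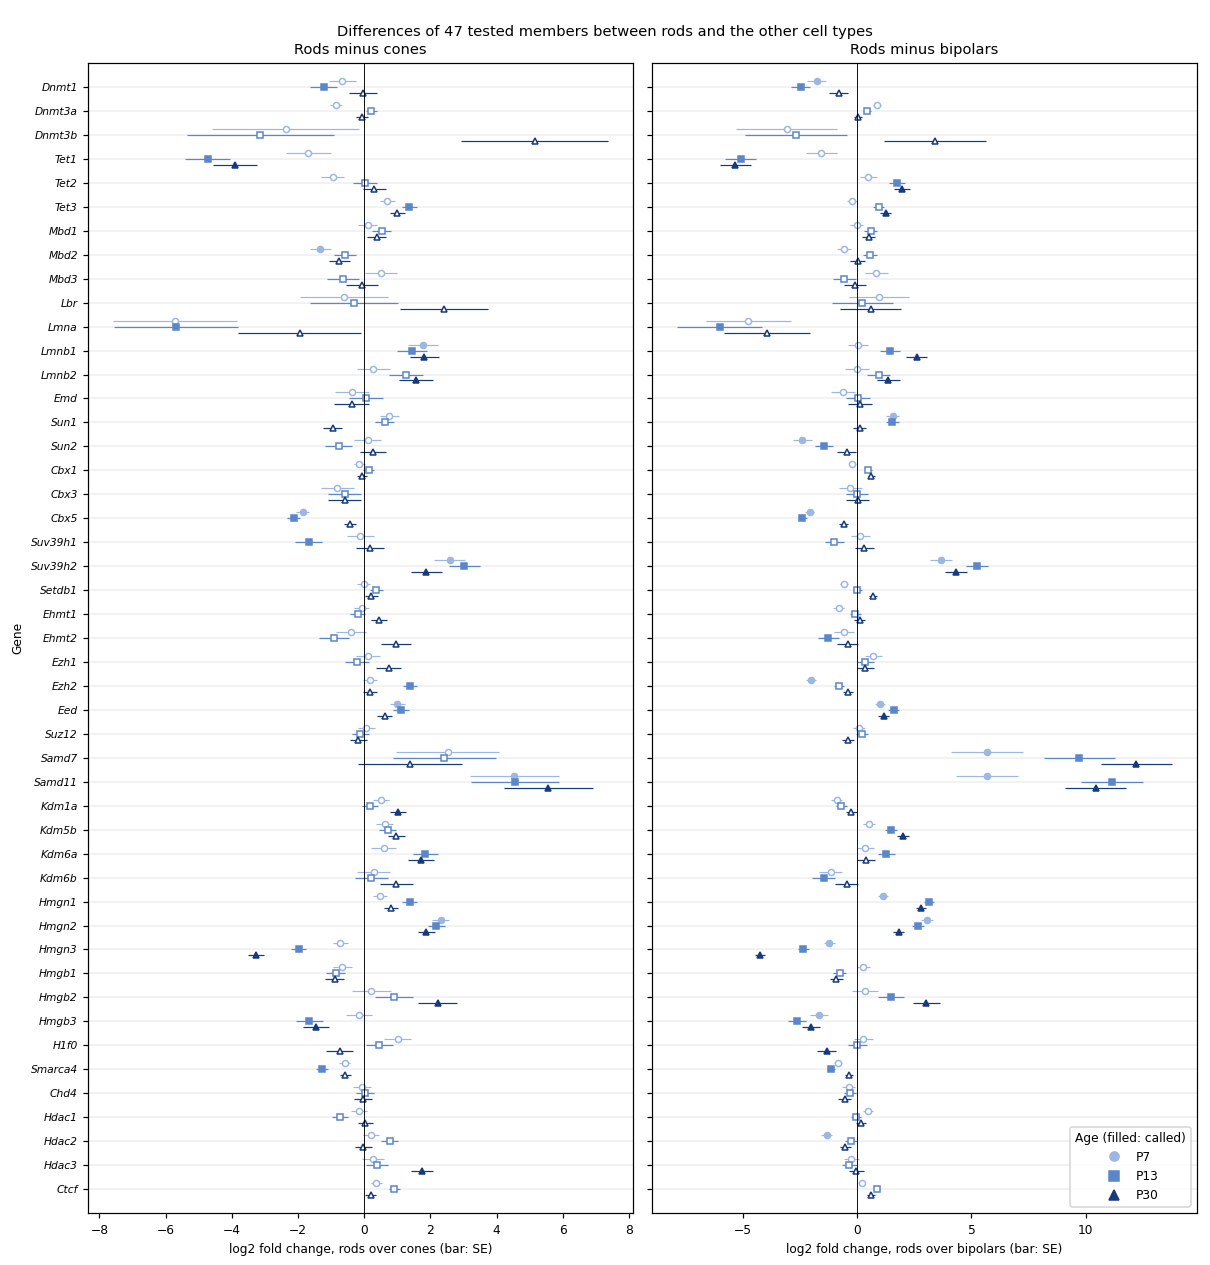
Log2 fold change of each of the 47 tested members, rods over cones on the left and rods over bipolars on the right, with its SE as a bar; circles are P7, squares P13 and triangles P30, and filled points passed the call. Suv39h2, Samd11 and Hmgn2 lie to the right of 0 in both panels and Tet1 and Hmgn3 to the left, while the bars of Dnmt3b, Lmna, Lbr, Samd7 and Samd11 are wide.

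Of the 7 genes of the nuclear envelope and lamina, 1 was called higher and 0 lower in rods than in cones at P7, 1 and 1 at P13 and 2 and 0 at P30. Against bipolars the counts were 1 and 1, 2 and 2, and 2 and 0. Over all genes, 3.30% to 9.98% were called higher and 9.52% to 14.1% lower against cones, and 12.0% to 15.7% and 16.5% to 25.2% against bipolars. With 4 to 9 genes to a role, the counts by role were not tested against these shares. The tethers of peripheral heterochromatin had few reads. Lbr, the lamin B receptor, had 0.862 and 5.68 CPM at P7, 0.457 and 2.24 CPM at P13 and 4.23 and 2.60 CPM at P30 in rods. Cones had 4.17 and 2.72 CPM at P7, 1.69 and 0.918 CPM at P13 and 0.120 and 3.12 CPM at P30, and bipolars 0.884 and 1.47 CPM at P7, 1.12 and 0.679 CPM at P13 and 2.16 and 2.23 CPM at P30. Its highest values were those of rod bipolars, 12.9 and 10.1 CPM, against 3.20 and 2.88 CPM in cone bipolars. Rod libraries overlapped cone libraries at all 3 ages and bipolar libraries at P7 and P13, and at P30 both rod libraries were above both bipolar libraries. No difference of rods from cones or bipolars was called for Lbr: the log2 fold changes against cones were -0.60 ± 1.33 at P7, -0.30 ± 1.33 at P13 and 2.40 ± 1.33 at P30 (± SE), with adjusted p of 0.838, 0.917 and 0.211. Cone replicate 1 at P30 held 3 reads of Lbr. Without cone replicate 2 at P30 the difference at that age was 4.71 and passed (adjusted p = 0.0130), and the values at P7 and P13 turned positive without rod replicate 1 of their age (0.75 and 0.84) and at P13 also without cone replicate 1 (0.14).

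Lmna, the gene of lamins A and C, was near the floor of detection in rods. Rod libraries held 0 and 0.877 CPM at P7, 0.316 and 0 CPM at P13 and 0.136 and 0.558 CPM at P30, and the 2 values of 0 stand for no reads. Cone libraries held 4.27 and 4.15 CPM at P7, 2.60 and 2.37 CPM at P13 and 0.921 and 1.30 CPM at P30. Bipolar libraries held 1.95 and 2.43 CPM at P7, 2.96 and 3.34 CPM at P13 and 3.47 and 5.51 CPM at P30, and rod bipolars had 3.37 and 1.71 CPM beside 4.91 and 4.20 CPM in cone bipolars. Every rod library was below every cone and bipolar library of its age. The difference was called at P13 only, with log2 fold changes of -5.68 ± 1.87 against cones (adjusted p = 0.0351) and -6.02 ± 1.87 against bipolars (adjusted p = 0.0157). These sizes depend on the value given to a library with no reads: on the log2(CPM + 1) scale they were -1.60 and -1.85. Both calls were lost without rod replicate 2 at P13 and without either cone or either bipolar library (adjusted p up to 0.328 and 0.197). At P7 the value against cones was -5.71 ± 1.87 with an adjusted p of 0.0502, and it passed with log2(CPM + 1) (adjusted p = 0.00306), where it was -1.93, with plain read totals, with voom on recovered reads and without rod replicate 2 (-9.18, adjusted p = 0.00257). Without rod replicate 1, the library with no reads, it was -2.25 with an adjusted p of 0.502.

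Lmnb1 encodes lamin B1, the B-type lamin of the nuclear lamina. Rods had 67.5 and 60.4 CPM at P7, 42.9 and 37.9 CPM at P13 and 48.1 and 34.0 CPM at P30. Cones had 19.5 and 17.9 CPM at P7, 12.98 and 17.1 CPM at P13 and 9.57 and 13.7 CPM at P30. Bipolars had 52.4 and 73.6 CPM at P7, 17.9 and 12.3 CPM at P13 and 10.4 and 4.25 CPM at P30, rod bipolars 4.95 and 11.3 CPM and cone bipolars 18.7 and 14.2 CPM. All rod libraries exceeded all cone libraries, and bipolars overlapped rods at P7 and stood below them at the later ages. Against cones the log2 fold change was 1.77 ± 0.45 at P7, 1.43 ± 0.45 at P13 and 1.82 ± 0.45 at P30, called each time (adjusted p = 0.0146, 0.0284 and 0.00812). Each of these calls was lost with some library left out: without rod replicate 1 or either cone library at P7, when any 1 of the 4 libraries was left out at P13, and without rod replicate 1 or cone replicate 1 at P30 (adjusted p up to 0.0857, 0.140 and 0.0799). Against bipolars the difference was called at P13, 1.44 ± 0.45 (adjusted p = 0.0165, lost without rod replicate 1 or bipolar replicate 2, and with plain read totals), and at P30, 2.60 ± 0.45 (adjusted p = 0.000287, kept without each library).

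Lmnb2, the other B-type lamin gene, had 50.8 and 36.0 CPM in rods at P30, against 12.2 and 17.0 CPM in cones and 17.9 and 15.5 CPM in bipolars. It was called higher in rods than in cones (1.57 ± 0.51) and than in bipolars (1.36 ± 0.51). The first call ended without rod replicate 1, rod replicate 2 or cone replicate 1, and the second when any 1 of its 4 libraries was left out, with adjusted p up to 0.196 and 0.199. Emd, which encodes emerin of the inner nuclear membrane, ran from 4.90 CPM in a cone bipolar library to 25.4 CPM in a P13 cone library and was called in no comparison.

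Sun1 and Sun2 span the inner nuclear membrane and join the lamina to the nesprins of the outer membrane. Sun1 had 250.4 and 147 CPM at P7, 232 and 215 CPM at P13 and 95.3 and 101 CPM at P30 in rods. In cones it had 98.8 and 131 CPM at P7, 179 and 118 CPM at P13 and 221 and 164 CPM at P30. Bipolars had 65.7 and 64.2 CPM at P7, 70.1 and 86.1 CPM at P13 and 96.6 and 84.9 CPM at P30, rod bipolars 98.0 and 57.1 CPM and cone bipolars 87.8 and 84.1 CPM. Rods stood above bipolars at P7 (1.56 ± 0.28, adjusted p = 0.000578) and at P13 (1.52 ± 0.28, adjusted p = 0.000495), calls that held without each library, and overlapped them at P30 (0.11 ± 0.28, not called). Sun2 went the other way against bipolars. Its rod values were 12.6 and 18.0 CPM at P7, 7.70 and 8.23 CPM at P13 and 21.3 and 10.3 CPM at P30. Cones had 18.5 and 10.5 CPM at P7, 15.6 and 11.9 CPM at P13 and 10.0 and 15.2 CPM at P30 and bipolars 82.8 and 77.1 CPM at P7, 24.6 and 19.2 CPM at P13 and 21.7 and 19.2 CPM at P30, with 18.0 and 12.3 CPM in rod bipolars and 23.7 and 20.8 CPM in cone bipolars. The P7 bipolar libraries stood alone at the top, and the differences of rods from bipolars were -2.41 ± 0.41 at P7 (adjusted p = 0.000305) and -1.45 ± 0.41 at P13 (adjusted p = 0.00888, and 0.0693 without bipolar replicate 1).

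Of the 8 genes of HP1 proteins and H3K9 methylation, 1 was called higher and 1 lower in rods than in cones at P7, 1 and 2 at P13 and 1 and 0 at P30, and the counts against bipolars were the same. The shares of all genes are those given for the envelope genes. Suv39h2, a histone methyltransferase that writes H3K9 trimethylation in heterochromatin, was higher in rods at every age. Rods had 66.3 and 60.9 CPM at P7, 96.2 and 78.4 CPM at P13 and 48.2 and 53.0 CPM at P30. Cones had 11.3 and 10.0 CPM at P7, 10.6 and 10.8 CPM at P13 and 11.1 and 17.1 CPM at P30. Bipolars had 6.28 and 3.96 CPM at P7, 3.54 and 1.45 CPM at P13 and 3.01 and 2.12 CPM at P30, rod bipolars 5.37 and 4.69 CPM and cone bipolars 2.84 and 4.31 CPM. Every rod library was above every cone and bipolar library, and cones stood above bipolars. The log2 fold change against cones was 2.58 ± 0.47 at P7, 3.02 ± 0.47 at P13 and 1.87 ± 0.47 at P30, with adjusted p of 0.00155, 0.000264 and 0.00896. Only the P30 call depended on single libraries, ending without rod replicate 2 or cone replicate 1 (adjusted p up to 0.0649). Against bipolars it was 3.67 ± 0.47, 5.25 ± 0.47 and 4.32 ± 0.47 at the 3 ages, called without each library in turn. Its paralogue Suv39h1 was called once, lower in rods than in cones at P13 (-1.68 ± 0.42), where rods had 38.6 and 11.4 CPM and cones 66.0 and 68.8 CPM, and that call ended without rod replicate 2 (adjusted p = 0.102).

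Cbx5, which encodes the heterochromatin protein HP1 alpha, was low in young rods. Rod libraries had 34.6 and 42.6 CPM at P7, 29.7 and 29.0 CPM at P13 and 116 and 95.4 CPM at P30. Cones had 125 and 155 CPM at P7, 140.4 and 119 CPM at P13 and 132 and 151 CPM at P30, and bipolars 168 and 157 CPM at P7, 146 and 168 CPM at P13 and 145 and 176 CPM at P30. Rod bipolars had 138 and 184 CPM and cone bipolars 186 and 153 CPM. The 4 rod libraries of P7 and P13 lay below all others of the series, and both rod libraries of P30 lay between them and the rest. Rods were lower than cones, with log2 fold changes of -1.86 ± 0.20 at P7 and -2.14 ± 0.20 at P13 (adjusted p = 9.13e-06 and 1.73e-06), and lower than bipolars, with -2.09 ± 0.20 and -2.42 ± 0.20 (adjusted p = 9.41e-07 and 1.24e-07). All 4 calls held without each library. At P30 the differences were -0.43 ± 0.20 against cones and -0.60 ± 0.20 against bipolars, under the fold needed for a call. Cbx1 and Cbx3, the genes of HP1 beta and HP1 gamma, were called in no comparison, with Cbx1 between 136 and 262 CPM in every library.

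Of the other H3K9 methyltransferases, Setdb1 (37.9 to 75.5 CPM over all libraries) and Ehmt1 (49.4 to 148 CPM) were called nowhere. Ehmt2, the gene of G9a, was called lower in rods than in bipolars at P13, 14.9 and 18.6 CPM against 43.6 and 36.5 CPM (-1.26 ± 0.45), a call lost when any 1 of the 4 libraries was left out (adjusted p up to 0.139).

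Among the 6 genes of Polycomb repression and its SAM-domain partners, 2 were called higher and 0 lower in rods than in cones at P7, 3 and 0 at P13 and 1 and 0 at P30. Against bipolars the counts were 3 and 1, 3 and 0, and 3 and 0, beside the shares of all genes given for the envelope genes. Samd7 and Samd11 encode SAM-domain proteins that work with Polycomb repressive complex 1 in photoreceptors. Their upstream windows are printed here together with those of Suv39h2, also higher in rods, and Tet1, lower in rods, because the 4 genes differ between rods and bipolars by a wide margin. Each window is the 250 bases before the RefSeq start on GRCm38.p6, on the strand of the gene. Capitals mark matches to TAATCC on either strand, the core recognised by the photoreceptor homeodomain factors CRX and OTX2. The Samd7 window is chr3:30746043-30746292 on the plus strand, the Samd11 window chr4:156255343-156255592 on the minus strand, the Suv39h2 window chr2:3474987-3475236 on the minus strand and the Tet1 window chr10:62887325-62887574 on the minus strand.
Samd7: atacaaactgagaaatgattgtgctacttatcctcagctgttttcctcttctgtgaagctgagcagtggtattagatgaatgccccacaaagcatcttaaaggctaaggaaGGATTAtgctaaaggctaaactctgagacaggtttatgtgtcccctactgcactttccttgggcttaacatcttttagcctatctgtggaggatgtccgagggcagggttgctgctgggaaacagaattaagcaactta
Samd11: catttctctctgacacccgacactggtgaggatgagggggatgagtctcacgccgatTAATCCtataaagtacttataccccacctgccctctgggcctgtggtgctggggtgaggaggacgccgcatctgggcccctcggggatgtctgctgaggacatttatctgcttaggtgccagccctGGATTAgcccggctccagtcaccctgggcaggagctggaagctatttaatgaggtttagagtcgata
Suv39h2: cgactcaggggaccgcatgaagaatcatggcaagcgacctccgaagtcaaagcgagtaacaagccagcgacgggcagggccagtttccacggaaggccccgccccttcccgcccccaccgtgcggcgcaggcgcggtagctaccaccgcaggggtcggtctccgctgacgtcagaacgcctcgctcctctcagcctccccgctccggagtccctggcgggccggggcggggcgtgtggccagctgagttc
Tet1: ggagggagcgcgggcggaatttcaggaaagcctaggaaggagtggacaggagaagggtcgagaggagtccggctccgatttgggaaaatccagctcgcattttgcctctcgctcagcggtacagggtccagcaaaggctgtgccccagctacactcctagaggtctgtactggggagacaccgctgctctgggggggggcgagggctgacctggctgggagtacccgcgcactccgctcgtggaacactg
The Samd7 window holds 1 match, starting 139 bases before the RefSeq start, and the Samd11 window 2, starting 193 and 67 bases before it. None was found in the Suv39h2 and Tet1 windows. Tet1 runs from 62804570 to 62908996 on the minus strand in GENCODE M21, so its window lies well inside the gene. The bases before the outermost Tet1 start were not examined. The Samd11 window also lies inside the gene as GENCODE M21 gives it, near its outer end. Of 32851 RefSeq windows of this length, 6.25% hold at least 1 match and 0.295% at least 2, and among the 55 windows that match 41 of the members these were 5 and 1. The observed over expected CpG ratio was 0.0848 for Samd7, 0.410 for Samd11, 0.895 for Suv39h2 and 0.630 for Tet1, where the median was 0.756 over the members' windows and 0.374 over all. A match is a string of letters and not evidence of binding.

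Samd7 lies on chromosome 3 at 30746293 to 30767174 and Samd11 on chromosome 4 at 156246966 to 156255657 (GRCm38, GENCODE M21). Samd7 had 1167 and 1049.6 CPM at P7, 1297 and 1275 CPM at P13 and 593 and 568 CPM at P30 in rods. Cones had 211 and 175 CPM at P7, 258 and 223 CPM at P13 and 158 and 311 CPM at P30. Bipolars had 27.5 and 16.8 CPM at P7, 2.23 and 1.02 CPM at P13 and 2.01 and 0 CPM at P30, rod bipolars 32.8 and 7.82 CPM and cone bipolars 23.1 and 13.2 CPM. The 3 cell types did not overlap at any age, with rods at the top, cones next and bipolars at the bottom. Against bipolars the log2 fold change was 5.68 ± 1.56 at P7, 9.73 ± 1.56 at P13 and 12.23 ± 1.56 at P30, with adjusted p of 0.0108, 0.000130 and 1.67e-05. The P7 call ended without rod replicate 1 or bipolar replicate 2 (adjusted p up to 0.0700), and at P30, where bipolar replicate 2 had no reads, the value was 8.39 on the log2(CPM + 1) scale.

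Against cones Samd7 was not called: the log2 fold changes were 2.53 ± 1.56, 2.42 ± 1.56 and 1.39 ± 1.56 at P7, P13 and P30, with adjusted p of 0.327, 0.280 and 0.564. The model gives each gene 1 spread over all 22 libraries, and for Samd7 that spread includes the P30 bipolar pair of 2.01 and 0 CPM. Fitted on the compared groups alone, the difference passed at P7 and P13 (adjusted p = 0.0135 and 0.0415), as it did on the log2(CPM + 1) scale, and with voom it passed at all 3 ages (adjusted p up to 0.000714).

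Samd11 had 128 and 226 CPM at P7, 89.7 and 106 CPM at P13 and 100.2 and 111 CPM at P30 in rods. In cones it had 13.4 and 3.98 CPM at P7, 4.01 and 4.26 CPM at P13 and 1.04 and 4.77 CPM at P30. Bipolars had 4.14 and 2.66 CPM at P7, 0.242 and 0 CPM at P13 and 0.122 and 0.0372 CPM at P30, with 5 reads over both libraries at P13 and 5 at P30, and rod bipolars had 3.33 and 2.52 CPM beside 2.49 and 0.369 CPM in cone bipolars. Every rod library was above every other library. The log2 fold change against cones was 4.54 ± 1.34 at P7, 4.56 ± 1.34 at P13 and 5.56 ± 1.34 at P30 (adjusted p = 0.0321, 0.0206 and 0.00697). These calls ended at P7 when any 1 of the 4 libraries was left out, at P13 without rod replicate 2 or either cone library and at P30 without cone replicate 1 (adjusted p up to 0.208, 0.0815 and 0.0659). Against bipolars it was 5.68 ± 1.34, 11.16 ± 1.34 and 10.45 ± 1.34, kept without each library, and 5.30, 6.46 and 6.63 on the log2(CPM + 1) scale.

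Polycomb repressive complex 2 was represented by its methyltransferases Ezh1 and Ezh2 and by its core subunits Eed and Suz12. Eed had 134 and 124 CPM at P7, 144 and 163 CPM at P13 and 148 and 123 CPM at P30 in rods. Cones had 60.0 and 68.8 CPM at P7, 71.1 and 70.5 CPM at P13 and 106 and 73.0 CPM at P30, bipolars 65.1 and 63.6 CPM at P7, 53.0 and 47.8 CPM at P13 and 75.4 and 48.5 CPM at P30, rod bipolars 78.2 and 54.3 CPM and cone bipolars 50.6 and 45.6 CPM. Rod libraries stood above all others at each age. The difference from cones was 1.004 ± 0.24 at P7 and 1.11 ± 0.24 at P13, both called, and 0.62 ± 0.24 at P30, not called (adjusted p = 0.00862, 0.00287 and 0.0703). From bipolars it was 1.001 ± 0.24, 1.60 ± 0.24 and 1.16 ± 0.24, called at each age. The P7 values lay at the edge of the fold threshold and were 0.99 for both on the log2(CPM + 1) scale. The P7 call against cones was lost without rod replicate 1 or cone replicate 1 and that against bipolars without rod replicate 1 or bipolar replicate 2 (log2 fold changes down to 0.90 and 0.95). The P30 call was lost without bipolar replicate 2 (0.84).

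Ezh2 was lower in rods than in bipolars at P7, 69.3 and 57.0 CPM against 258 and 257 CPM (-2.04 ± 0.22, adjusted p = 3.82e-06), and higher than in cones at P13, 56.4 and 92.8 CPM against 25.5 and 30.3 CPM (1.38 ± 0.22, adjusted p = 0.000286). Ezh1 and Suz12 were called in no comparison.

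**Figure D2:**
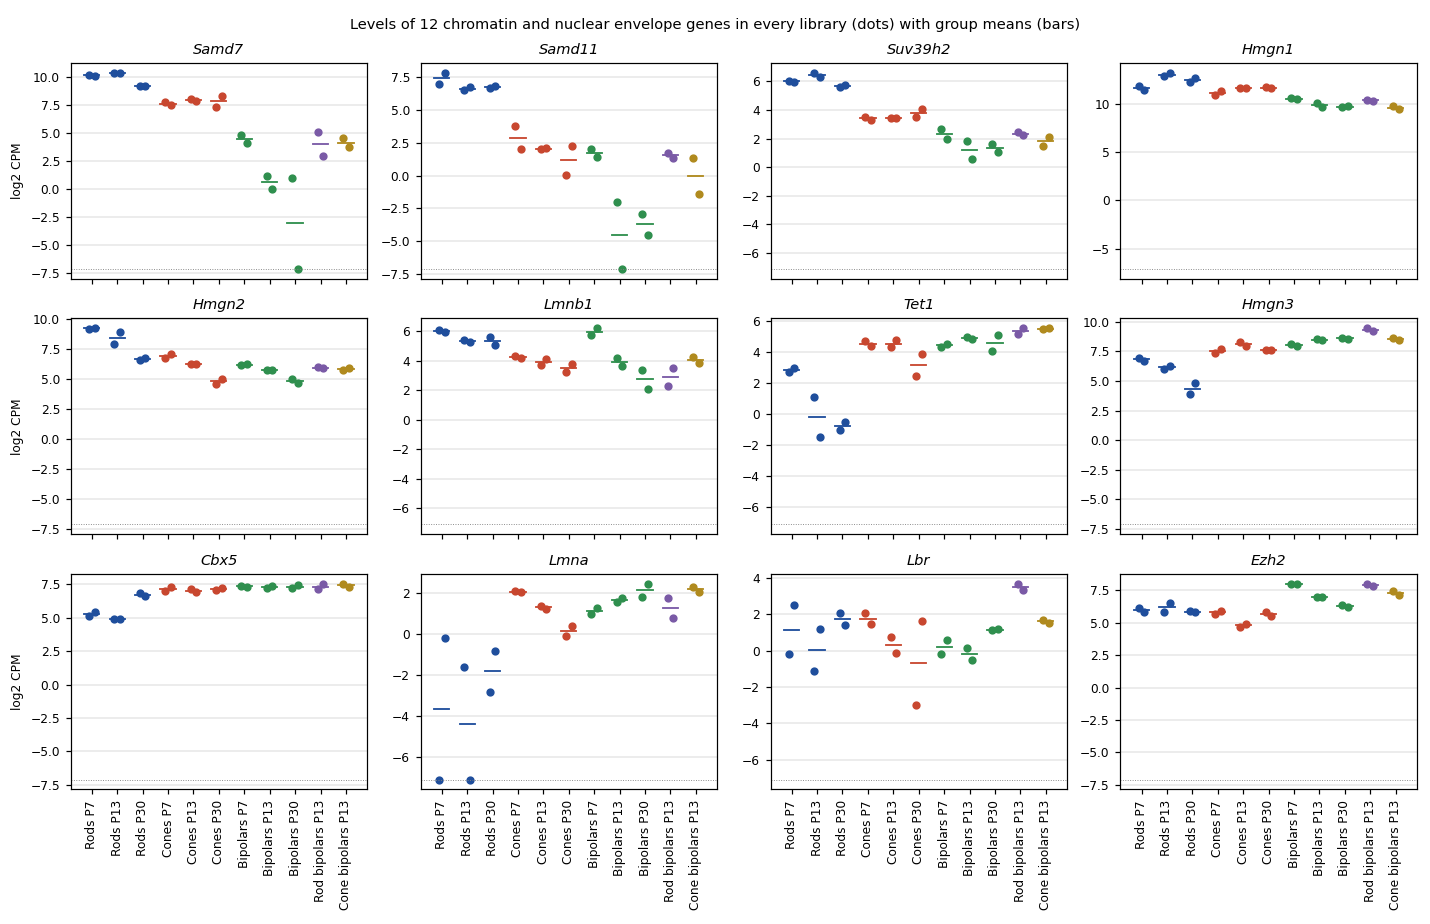
Log2 CPM of 12 members in each library (dots, 2 per group) with the group mean (bar); the groups run from rods, cones and bipolars, each at P7, P13 and P30, to rod and cone bipolars at P13, and the dotted line is the value of a gene with no reads. Within each age, Samd7, Samd11, Suv39h2 and Hmgn2 are highest in rods, Tet1, Hmgn3 and Lmna lowest there, and Cbx5 is low in rods at P7 and P13 only.

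Of the 9 tested genes of DNA methylation, 0 were called higher and 1 lower in rods than in cones at P7, 1 and 2 at P13 and 0 and 1 at P30. Against bipolars the counts were 0 and 1, 1 and 2, and 2 and 1, beside the shares of all genes given for the envelope genes. Tet1, which oxidises 5-methylcytosine, had 6.66 and 8.09 CPM at P7, 2.21 and 0.352 CPM at P13 and 0.498 and 0.706 CPM at P30 in rods. Cones had 26.8 and 21.0 CPM at P7, 20.4 and 27.5 CPM at P13 and 5.45 and 14.7 CPM at P30. Bipolars had 20.8 and 23.2 CPM at P7, 32.2 and 29.4 CPM at P13 and 17.3 and 34.6 CPM at P30, rod bipolars 35.8 and 46.9 CPM and cone bipolars 45.7 and 47.3 CPM. Rods were below all other libraries of their age. The log2 fold changes at P7, -1.69 ± 0.68 against cones and -1.58 ± 0.68 against bipolars, did not pass (adjusted p = 0.109 and 0.0859). Those at P13, -4.73 ± 0.68 and -5.11 ± 0.68, and at P30, -3.90 ± 0.68 and -5.35 ± 0.68, did, with adjusted p from 1.53e-05 to 0.000608, and they held without each library.

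Tet2, of the same enzyme family, was called higher in rods than in bipolars at the later ages. Rods had 85.1 and 67.6 CPM at P7, 172 and 128 CPM at P13 and 164 and 158 CPM at P30. Cones had 172 and 126 CPM at P7, 132 and 160.3 CPM at P13 and 198 and 85.1 CPM at P30, bipolars 47.3 and 61.8 CPM at P7, 46.2 and 42.4 CPM at P13 and 55.3 and 31.1 CPM at P30, rod bipolars 63.5 and 78.1 CPM and cone bipolars 100.02 and 64.3 CPM. Rods and cones overlapped at P13 and P30, and both stood above bipolars. The difference from bipolars was 0.49 ± 0.36 at P7, not called, 1.75 ± 0.36 at P13 and 1.96 ± 0.36 at P30 (adjusted p = 0.00100 and 0.000441). Tet3 was higher in rods than in cones at P13, 388 and 235 CPM against 104 and 132 CPM (1.37 ± 0.23, adjusted p = 0.000482), and higher than in bipolars at P30, 192 and 153 CPM against 71.6 and 72.8 CPM (1.25 ± 0.23, adjusted p = 0.000464).

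Dnmt1, the maintenance methyltransferase, was called lower in rods than in bipolars at P7 and P13. It had 26.8 and 13.5 CPM at P7, 19.2 and 6.16 CPM at P13 and 27.0 and 28.2 CPM at P30 in rods. Cones had 27.0 and 33.4 CPM at P7, 27.5 and 23.6 CPM at P13 and 23.4 and 34.0 CPM at P30, bipolars 68.3 and 61.5 CPM at P7, 55.8 and 65.1 CPM at P13 and 45.2 and 52.4 CPM at P30, rod bipolars 43.3 and 38.9 CPM and cone bipolars 72.8 and 65.9 CPM. Rod replicate 2 at P13 was the lowest library, and bipolar libraries stood above rods and cones throughout. Against bipolars the log2 fold change was -1.77 ± 0.42 at P7 (adjusted p = 0.00389, 0.0576 without rod replicate 2), -2.47 ± 0.42 at P13 (adjusted p = 0.000202) and -0.82 ± 0.42 at P30, not called. Against cones it was called at P13 only (-1.23 ± 0.42, adjusted p = 0.0399, and up to 0.471 without rod replicate 2 or either cone library). Dnmt3a, the main methyltransferase that sets methylation anew in neurons, was between 113 and 500 CPM in every library and was called in no comparison, nor was Dnmt3b, whose rod values were 8.54 and 0.110 CPM at P7, 7.38 and 0.126 CPM at P13 and 14.0 and 31.9 CPM at P30.

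Of the methyl-CpG binding proteins, Mbd1 was called nowhere. Mbd2 was lower in rods than in cones at P7, 12.1 and 19.1 CPM against 33.0 and 44.1 CPM (-1.33 ± 0.32, adjusted p = 0.0102), a call lost without rod replicate 1 or cone replicate 2 (adjusted p up to 0.113). Uhrf1, the partner of Dnmt1 at newly copied DNA, was at 0 to 8.03 CPM and was not tested.

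Kdm5b, Kdm6a, Kdm6b and Kdm1a encode histone demethylases, of H3K4 (Kdm5b and Kdm1a) and of H3K27 (Kdm6a and Kdm6b). None of the 4 was called at P7. Against cones 1 was called higher in rods at P13 and 2 at P30, and against bipolars 2 were called higher and 1 lower at P13 and 1 higher at P30. These stand beside the shares of all genes given for the envelope genes. Kdm5b had 253 and 282 CPM at P7, 284 and 244 CPM at P13 and 262 and 336 CPM at P30 in rods. Cones had 200.5 and 152 CPM at P7, 129 and 198 CPM at P13 and 202 and 113 CPM at P30, bipolars 193 and 179.6 CPM at P7, 90.1 and 101 CPM at P13 and 65.7 and 85.2 CPM at P30, rod bipolars 76.5 and 73.8 CPM and cone bipolars 88.1 and 82.0 CPM. Rods were above the other types at each age, and the difference from bipolars was called at P13 (1.46 ± 0.26, adjusted p = 0.000305) and at P30 (1.99 ± 0.26, adjusted p = 1.99e-05). With plain read totals the P13 value was 0.97 and under the fold threshold.

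Kdm6a is X-linked and removes H3K27 methylation. Rods had 47.4 and 43.3 CPM at P7, 95.9 and 56.8 CPM at P13 and 43.0 and 59.9 CPM at P30. Cones had 25.8 and 34.8 CPM at P7, 18.3 and 23.1 CPM at P13 and 9.13 and 26.1 CPM at P30, bipolars 34.2 and 37.0 CPM at P7, 31.4 and 29.8 CPM at P13 and 38.0 and 40.0 CPM at P30, rod bipolars 52.6 and 60.5 CPM and cone bipolars 44.4 and 43.0 CPM. Rods were above both types at each age, and they were called above cones at P13 (1.84 ± 0.38, adjusted p = 0.00236) and at P30 (1.72 ± 0.38, adjusted p = 0.00384). The P30 call was lost without cone replicate 1, the lowest library of the series (log2 fold change 0.96). Against bipolars rods were called higher at P13 alone (1.27 ± 0.38, adjusted p = 0.0127, lost without rod replicate 1 or bipolar replicate 2 and with plain read totals). Kdm1a was called above cones at P30 (1.01 ± 0.24) and Kdm6b below bipolars at P13 (-1.46 ± 0.51), and each of these calls was lost without more than 1 of its libraries: rod replicate 1 or cone replicate 1 for Kdm1a, and rod replicate 1 or either bipolar library for Kdm6b (adjusted p up to 0.0968 and 0.332).

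The HMGN proteins bind nucleosomes and loosen chromatin, the HMGB proteins bend DNA and H1f0 encodes a linker histone of resting cells. Of these 7 genes, 1 was called higher and 0 lower in rods than in cones at P7, 2 and 2 at P13 and 2 and 2 at P30. Against bipolars the counts were 2 and 2, 3 and 2, and 3 and 3, beside the shares of all genes given for the envelope genes. Hmgn1 had 3744 and 2738 CPM at P7, 7410.2 and 9496 CPM at P13 and 5104 and 6589 CPM at P30 in rods. Cones had 1961 and 2659 CPM at P7, 3255 and 3229.8 CPM at P13 and 3443 and 3142 CPM at P30. Bipolars had 1533 and 1403 CPM at P7, 1071 and 838 CPM at P13 and 829.8 and 857 CPM at P30, rod bipolars 1349 and 1286 CPM and cone bipolars 873 and 693 CPM. Rods were highest at each age and bipolars lowest. Against bipolars the log2 fold change was 1.13 ± 0.22 at P7, 3.15 ± 0.22 at P13 and 2.78 ± 0.22 at P30 (adjusted p = 0.000847, 1.92e-08 and 8.35e-08), and against cones 1.37 ± 0.22 at P13 (adjusted p = 0.000273). The P7 value came under the fold threshold without rod replicate 1 and with plain read totals. At P7 and P30 the values against cones, 0.49 ± 0.22 and 0.82 ± 0.22, were under the fold threshold.

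Hmgn2 was called higher in rods at every age, against both cell types. Rods had 592 and 605 CPM at P7, 246 and 478 CPM at P13 and 94.9 and 111 CPM at P30. Cones had 106 and 136 CPM at P7, 75.0 and 76.8 CPM at P13 and 23.6 and 33.0 CPM at P30, bipolars 70.5 and 74.9 CPM at P7, 53.7 and 54.1 CPM at P13 and 33.0 and 25.8 CPM at P30, rod bipolars 64.0 and 59.8 CPM and cone bipolars 55.5 and 61.9 CPM. All rod libraries of an age exceeded all others of that age. The log2 fold changes against cones were 2.31 ± 0.26, 2.18 ± 0.26 and 1.88 ± 0.26, and against bipolars 3.04 ± 0.26, 2.67 ± 0.26 and 1.81 ± 0.26, at P7, P13 and P30. All 6 were called without each library in turn, with adjusted p from 2.99e-07 to 7.30e-05 over all libraries.

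Hmgn3 lay on the other side. Its rod values were 123 and 105 CPM at P7, 64.8 and 77.5 CPM at P13 and 15.1 and 28.0 CPM at P30. Cones had 165 and 211 CPM at P7, 310.0 and 253 CPM at P13 and 196 and 201 CPM at P30, bipolars 278 and 249.7 CPM at P7, 381 and 349 CPM at P13 and 406 and 381 CPM at P30, rod bipolars 705 and 592 CPM and cone bipolars 404 and 346 CPM. Rods were below every other library of their age, and the CPM of rods was lower at each later age. Against cones it was -0.72 ± 0.23 at P7, under the fold threshold, -1.98 ± 0.23 at P13 and -3.27 ± 0.23 at P30 (adjusted p = 1.91e-05 and 1.05e-07). Against bipolars it was -1.22 ± 0.23, -2.36 ± 0.23 and -4.26 ± 0.23 (adjusted p = 0.000864, 1.03e-06 and 2.17e-09). These calls held without each library. The Hmgn and Hmgb genes and Cbx3 have processed copies elsewhere in the genome, and how reads shared with such copies were counted is not given in the sources used here.

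Hmgb3 had 91.8 and 123 CPM at P7, 40.2 and 25.3 CPM at P13 and 12.4 and 20.7 CPM at P30 in rods. Cones had 104 and 137 CPM at P7, 123 and 82.2 CPM at P13 and 25.4 and 75.9 CPM at P30, bipolars 310.4 and 366 CPM at P7, 187 and 212 CPM at P13 and 60.6 and 69.4 CPM at P30, rod bipolars 131 and 168 CPM and cone bipolars 151 and 150.4 CPM. Bipolars were highest at each age save for 1 cone library at P30, and rods were lowest from P13 on. Against bipolars the log2 fold change was -1.66 ± 0.40, -2.64 ± 0.40 and -2.01 ± 0.40 at P7, P13 and P30 (adjusted p = 0.00465, 7.85e-05 and 0.000901), and each call held without each library. Their difference from cones was -1.66 ± 0.40 at P13 and -1.45 ± 0.40 at P30, and these calls were lost without rod replicate 2 or cone replicate 1 at P13, without rod replicate 1 or cone replicate 2 at P30 and, at P30, with plain read totals (adjusted p up to 0.0675 and 0.192).

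Hmgb2 had 12.1 and 10.1 CPM at P7, 9.98 and 18.8 CPM at P13 and 15.2 and 22.7 CPM at P30 in rods. Cones had 6.99 and 12.98 CPM at P7, 7.81 and 6.91 CPM at P13 and 3.20 and 4.97 CPM at P30, bipolars 9.82 and 7.80 CPM at P7, 5.53 and 4.36 CPM at P13 and 2.01 and 2.57 CPM at P30, rod bipolars 8.61 and 4.64 CPM and cone bipolars 5.34 and 2.62 CPM. Rods overlapped cones at P7 and otherwise stood above both types. They were called higher than bipolars at P30 (3.03 ± 0.59, adjusted p = 0.000710, kept without each library) and at P13 (1.48 ± 0.59, adjusted p = 0.0493, lost without rod replicate 2 or either bipolar library, with plain read totals and with voom). At P30 they were higher than cones (2.22 ± 0.59, adjusted p = 0.0117, lost without rod replicate 2 or cone replicate 1). Hmgb1 was called nowhere, and H1f0 was lower in rods than in bipolars at P30 (-1.33 ± 0.41, adjusted p = 0.0154, up to 0.103 without rod replicate 1 or bipolar replicate 1).

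Of 6 remodellers, deacetylases and Ctcf, 0 were called against cones at P7, 1 lower in rods at P13 and 1 higher at P30, and against bipolars 1 lower at P7, 1 lower at P13 and 0 at P30. These counts, too, stand beside the shares of all genes given for the envelope genes. Smarca4, the ATPase of the BAF complex, was lower in rods at P13, 68.9 and 65.2 CPM against 156 and 169 CPM in cones (-1.27 ± 0.18, adjusted p = 8.41e-05) and 142 and 152 CPM in bipolars (-1.13 ± 0.18, adjusted p = 9.68e-05). Both calls held without each library. Hdac2, a histone deacetylase, was lower in rods than in bipolars at P7, 126 and 147 CPM against 352 and 338 CPM (-1.35 ± 0.25, adjusted p = 0.000730). Hdac3, another deacetylase, which emerin is known to bind in other cells, was higher in rods than in cones at P30, 32.6 and 20.4 CPM against 8.57 and 6.95 CPM (1.74 ± 0.33, adjusted p = 0.00126). Hdac1 and Ctcf passed no comparison, and Ctcf, the insulator protein that shapes chromosome loops, ran from 132 CPM in a P13 cone library to 304 CPM in a P13 rod library.

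Fitting only the compared groups, which leaves 2 residual degrees of freedom, gave fewer calls against cones at P13 and P30. At P13 it called 6 members, 5 of them among the 17 above (Cbx5, Suv39h2, Samd11, Hmgn3 and Smarca4), and at P30 it called Hmgn3 alone. The calls it ended had adjusted p from 0.0555 for Eed to 0.429 for Dnmt1 at P13, among them Tet1 (0.181), Tet3 (0.160), Ezh2 (0.155), Kdm6a (0.118), Hmgn1 (0.226) and Hmgn2 (0.105), and from 0.0501 for Hmgn2 to 0.310 for Hmgb3 at P30, among them Tet1 (0.135) and Hdac3 (0.115). At P7 it called 7, of which 6 were among the 7 above (without Mbd2, adjusted p = 0.107), and against bipolars it called 14, 15 and 17, of which 13, 15 and 16 were among those above. It ended the calls on Dnmt1 at P7 (adjusted p = 0.0508) and, at P13, on Dnmt1 (0.0767), Tet1 (0.05003), Sun2 (0.0557), Kdm6a (0.0712), Hmgb2 (0.133), Lmna (0.135) and Kdm6b (0.206).

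**Figure D3:**
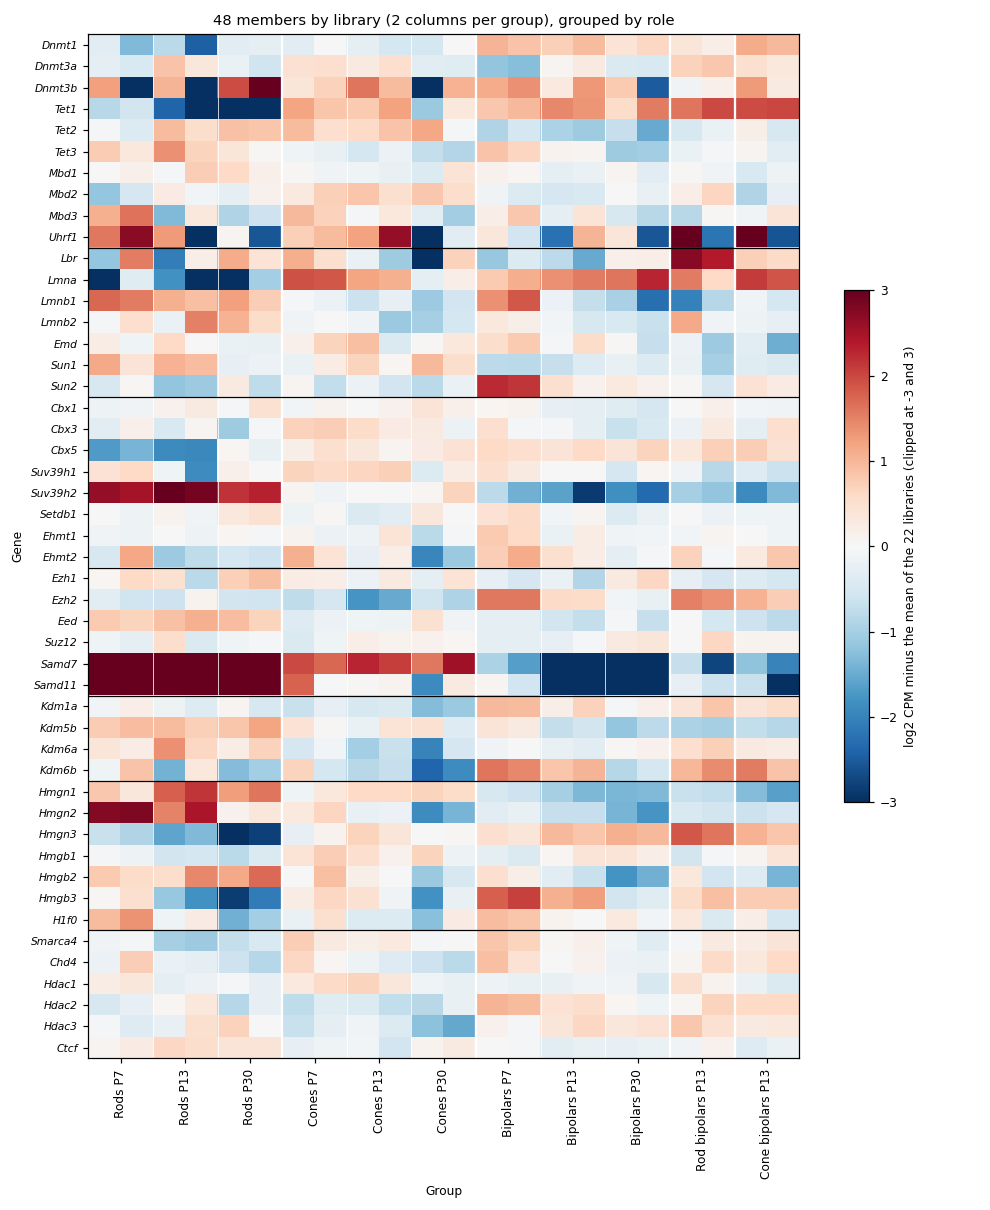
Log2 CPM of the 48 members in each of the 22 libraries, minus the member's mean over the libraries and limited to -3 and 3; red is above the mean, blue below, 2 columns make a group and black lines separate the roles. Samd7, Samd11 and Suv39h2 are red in the rod columns, and Hmgn2 is red there at P7 and P13 and near its mean at P30. Tet1 and Hmgn3 are blue in rods from P13 on, and Dnmt3b, Uhrf1, Lmna and Lbr differ between libraries of the same group.

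The change with age was taken as P30 minus P7 within a cell type. In rods 10 members were called, 2 higher and 8 lower at P30, where 19.8% of all genes were called (10.7% higher and 9.15% lower). In cones 5 were called, all lower, beside 10.5% of all genes (3.19% higher and 7.28% lower). In bipolars 13 were called, all lower, beside 12.5% of all genes (7.95% higher and 4.50% lower). Leaving out replicate 1 of the cones at P7 or at P30 left 1 call in cones, and leaving out replicate 1 of the bipolars at P7 left 8 in bipolars. The median change of the members was -0.12 in rods, -0.54 in cones and -0.79 in bipolars, beside 0.10, -0.19 and 0.02 over all genes. With plain read totals the calls were 1 higher and 9 lower in rods, 22 lower in cones and 15 lower in bipolars, and that scaling moved the median change of all genes by -0.10, -0.78 and -0.16. Fitted on the compared groups alone, rods kept Hmgn2 and H1f0 and cones Hmgn2.

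Values here are log2 fold changes with their SE. Cbx5 rose in rods (1.45 ± 0.20, adjusted p = 7.50e-05), while its changes were 0.02 ± 0.20 in cones and -0.03 ± 0.20 in bipolars, neither called. Tet2 was called higher in rods at P30 (1.09 ± 0.36, adjusted p = 0.0368), but that call was lost when any 1 of the 4 libraries was left out and with plain read totals (adjusted p up to 0.182). Tet1 fell in rods (-3.61 ± 0.68, adjusted p = 0.00110). So did 4 of the 7 HMG and linker histone genes: Hmgn3 (-2.46 ± 0.23, adjusted p = 2.58e-06), Hmgb3 (-2.73 ± 0.40, adjusted p = 0.000157), H1f0 (-2.39 ± 0.41, adjusted p = 0.000525) and Hmgn2. These 5 calls held without each library. Fitted on the compared groups alone, the calls on Cbx5, Hmgb3, Hmgn3 and Tet1 were lost (adjusted p = 0.05002, 0.0503, 0.0611 and 0.0884). H1f0 had 114 and 150.3 CPM at P7, 53.8 and 69.2 CPM at P13 and 21.6 and 28.8 CPM at P30 in rods, without overlap between ages. Mbd3, a NuRD subunit (-2.10 ± 0.49), Kdm6b (-1.53 ± 0.51) and Chd4 (-1.02 ± 0.27), an ATPase of that complex, were also called lower, and these calls were lost without rod replicate 2 at P7 (Mbd3, adjusted p = 0.0543), without that library or either P30 library (Kdm6b, up to 0.274) and without replicate 2 of either age (Chd4, up to 0.175).

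Hmgn2 fell in all 3 cell types, with -2.54 ± 0.26 in rods, -2.11 ± 0.26 in cones and -1.32 ± 0.26 in bipolars (adjusted p = 4.91e-06, 0.000161 and 0.00246). Kdm6b, too, was called lower in all 3, and in each type that call was lost with some libraries left out. Hmgb3 was called lower in all 3 as well, with -1.44 ± 0.40 in cones, a call lost without either P7 library or without P30 replicate 1 (adjusted p up to 0.296), and -2.38 ± 0.40 in bipolars. Ehmt2, Kdm6b and Chd4 were the remaining calls in cones, -2.26 ± 0.45, -2.21 ± 0.51 and -1.06 ± 0.27, all lost without replicate 1 of P7 or of P30, and for Chd4 also without P30 replicate 2 (adjusted p up to 0.0820, 0.166 and 0.220).

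In bipolars the calls that held without each library were those of Tet3 (-1.80 ± 0.23), Lmnb1 (-3.22 ± 0.45), Sun2 (-1.97 ± 0.41), Ezh2 (-1.73 ± 0.22), Samd7 (-7.47 ± 1.56), Kdm5b (-1.31 ± 0.26), Hmgn2 and Hmgb3. The size for Samd7 ran from -11.53 to -3.42 with a library left out and was -3.70 on the log2(CPM + 1) scale, and its call was lost when fitted on the compared groups alone (adjusted p = 0.122). Lmnb1 had 10.4 and 4.25 CPM at P30, against 52.4 and 73.6 CPM at P7. Ezh2 had 81.1 and 74.2 CPM at P30, against 258 and 257 CPM at P7. The remaining calls, Samd11 (-5.46 ± 1.34), Kdm6b (-2.22 ± 0.51), Hmgb2 (-1.94 ± 0.59), Smarca4 (-1.002 ± 0.18) and Hdac2 (-1.02 ± 0.25), were each lost without 2 or more of the 4 libraries. For Samd11 these were both P7 libraries and P30 replicate 2, for Kdm6b replicate 1 of each age, for Hmgb2 all 4, for Smarca4 P7 replicate 1 and P30 replicate 2, and for Hdac2 both P7 libraries and P30 replicate 2. Beside these falls, the Müller glia marker sum was higher in the P30 bipolar libraries, as given above. The 4 microglia markers summed to 112 and 262 CPM at P30, against 3.67 and 4.89 CPM at P7, the 4 red blood cell markers to 111 and 169 CPM, against 0.0465 and 0.0565 CPM, and the 3 vascular markers to 27.8 and 33.1 CPM, against 0.170 and 0.372 CPM. Called higher at P30 were 4 of 5 Müller glia, 0 of 4 microglia, 4 of 4 red blood cell and 3 of 3 vascular markers. The sum of the 8 proliferation markers in the table, of 12 listed, was 143 and 144 CPM at P30, against 172 and 178 CPM at P7. The part of any of these in the changes was not tested, nor was the difference of the bipolar from the rod change.

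**Figure D4:**
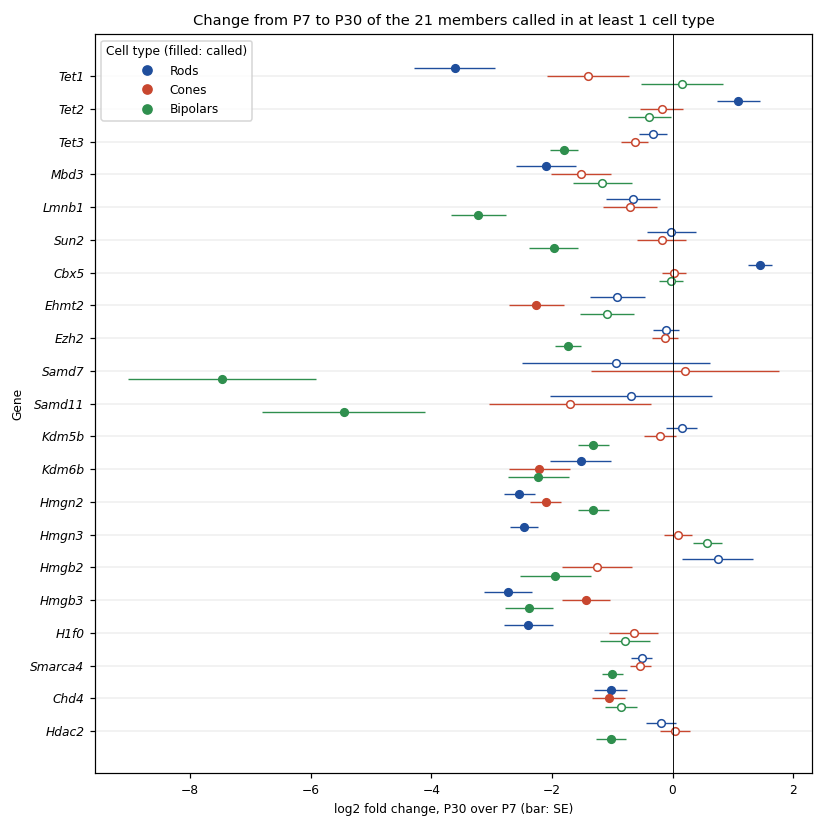
Log2 fold change of P30 over P7, with its SE as a bar, for the 21 members called in at least 1 cell type, in rods (blue), cones (red) and bipolars (green); filled points passed the call. Cbx5 and Tet2 are the filled points right of 0. Hmgn2, Hmgb3 and Kdm6b have filled points left of 0 in all 3 types. Lmnb1, Sun2, Ezh2, Samd7 and Kdm5b have filled points for bipolars only.

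Whether the change with age differed between rods and cones was tested as the interaction of cell type and age. It was called for 3 members, 1 higher and 2 lower, beside 10.6% of all genes (6.04% higher and 4.57% lower). The change of Cbx5 was higher in rods than in cones by 1.43 ± 0.28 (adjusted p = 0.00466), that of Hmgn3 was lower (-2.55 ± 0.33, adjusted p = 0.000244) and that of Sun1 was lower (-1.71 ± 0.40, adjusted p = 0.0139). Sun1 moved by -0.97 ± 0.28 in rods and by 0.74 ± 0.28 in cones, neither of them called alone. Its interaction was lost without P7 replicate 1 of rods or of cones or without P30 replicate 1 of cones (adjusted p = 0.0594, 0.0729 and 0.0526), when fitted on the compared groups alone and with plain read totals. Without P30 replicate 1 or replicate 2 of cones, 5 and 6 members were called. Plain totals moved the median interaction of all genes by 0.65 and gave 8 members higher and 1 lower. The cone libraries of P30 that enter this test are those with the high mitochondrial share and a Müller glia sum above that of P7 cones. The part of either was not tested. For Tet1, Hmgn2 and the remaining members no interaction was called, which does not show that they changed alike.

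Between rod bipolars and cone bipolars at P13 no member was called, by limma or by voom, where 4.68% of all genes were called (1.51% higher and 3.17% lower). At an unadjusted p under 0.05 there were 6: Mbd2, Lmnb1, Ezh2, Hmgn1, Hmgn3 and Hdac1. Hmgn1 came nearest, with 1349 and 1286 CPM in rod bipolars against 873 and 693 CPM in cone bipolars (0.76 ± 0.22, adjusted p = 0.0504). Lbr, with the largest difference in size (1.91 ± 1.33, adjusted p = 0.535), showed no overlap between the 2 types.

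Of 121 further chromatin genes listed beside the members (Polycomb repressive complex 1, other histone methylation enzymes, nuclear envelope proteins, methyl-DNA readers, cohesin and heterochromatin partners, deacetylases and remodellers), 119 were tested. Against cones, 2 were called higher and 7 lower in rods at P7, 8 and 14 at P13 and 13 and 4 at P30. Against bipolars the counts were 10 higher and 17 lower, 25 and 21, and 25 and 10. With age they were 12 higher and 8 lower in rods, 4 and 11 in cones and 8 and 16 in bipolars, 6 and 4 for the interaction, and 3 and 2 between rod and cone bipolars. These shares ran from 4.20% to 38.7%. They were below the share of all genes in 9 of the 11 comparisons and above it for the change with age in cones (12.6%) and in bipolars (20.2%).

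Syne1, which encodes a nesprin and partner of Sun1 and Sun2 at the nuclear envelope, rose with age in each cell type. Rods had 2.43 and 1.51 CPM at P7, 31.7 and 12.5 CPM at P13 and 182 and 155 CPM at P30. Cones had 8.29 and 8.92 CPM at P7, 20.4 and 20.1 CPM at P13 and 83.9 and 66.4 CPM at P30, bipolars 12.6 and 10.9 CPM at P7, 79.5 and 69.5 CPM at P13 and 229 and 257 CPM at P30, rod bipolars 464 and 424 CPM and cone bipolars 116 and 92.6 CPM. No 2 ages overlapped within a cell type, and the change was 6.44 ± 0.34 in rods, 3.12 ± 0.34 in cones and 4.37 ± 0.34 in bipolars (adjusted p = 5.78e-09, 6.13e-05 and 3.76e-07). The rise was greater in rods than in cones by 3.33 ± 0.48 (interaction, adjusted p = 0.000580), and rod bipolars exceeded cone bipolars by 2.10 ± 0.34 (adjusted p = 0.00131).

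Syne3, the gene of another nesprin, had no reads in either rod library at P7, 0.562 and 0.0252 CPM at P13 and 19.8 and 19.7 CPM at P30. The P30 mean was at least 628-fold higher than the floor of 3 reads over both P7 libraries. Cones had 1.53 and 0.865 CPM at P7, 2.18 and 1.12 CPM at P13 and 0.160 and 7.54 CPM at P30, and bipolars stayed at 0.0931 to 0.582 CPM. Both rod libraries of P30 were above every other library of the series. Apobec2, a member of the cytidine deaminase family, was higher in rods than in bipolars at each age (6.53 ± 0.75, 5.39 ± 0.75 and 5.17 ± 0.75), with 96.3 and 63.8 CPM at P7, 69.1 and 152 CPM at P13 and 31.4 and 28.4 CPM at P30 in rods, against 1.40 and 0.509 CPM at P7, 2.18 and 2.71 CPM at P13 and 2.25 and 0.298 CPM at P30 in bipolars. Cones lay between the 2 types at each age, with 17.2 and 18.2 CPM at P7 and 21.1 and 26.4 CPM at P13. At P30 cones had 19.9 and 20.3 CPM, nearer to rods than to bipolars. Gadd45a, a stress-response gene linked to DNA demethylation, was called higher in rods than in cones at P7 (2.34 ± 0.56), P13 (3.20 ± 0.56) and P30 (2.03 ± 0.56). The adjusted p was 0.00946, 0.000661 and 0.0145, and the P7 and P30 calls were each lost without either of 2 libraries. At P13 it had 69.4 and 89.0 CPM in rods against 7.84 and 9.33 CPM in cones. Phc2, a Polycomb repressive complex 1 subunit, was called higher in rods than in cones at P7 and P30 (1.25 ± 0.26 and 1.61 ± 0.26). At P13, where its test is not given here, it had 68.8 and 108 CPM in rods against 35.8 and 31.5 CPM in cones.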

How the data were processed

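The authors deposited log2 CPM values of 13812 genes in 22 libraries, on a scale where a gene with no reads stands at -7.10. Per the labels' protocols, sorted cells were lysed for PicoPure RNA isolation, mRNA was amplified in a linear fashion with a RiboAmp kit, and TruSeq v2 libraries were made, and such amplification can distort the relative level of transcripts. The submitters' processing notes name STAR, edgeR and GRCm38 (mm10). No source used here gives the read counter or its annotation. Symbols came from GENCODE M21, and 27 identifiers without one, at most 0.378% of a library's reads, were left out. Whole reads could be recovered from the values (100% within 0.01 read), giving 14.4 to 54.4 Mreads (mega-reads) per library. The authors' scaled library size was 0.608 to 1.23 of that total.

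All 22 libraries entered a group-means model in limma 3.58.1 (R 4.3.3) on the deposited values, with a trended prior (11 residual degrees of freedom, prior 4.27). Genes with a log2 CPM of 0 or more in both libraries of a group were tested (13405), Benjamini-Hochberg adjustment ran over all of them, and called means an adjusted p under 0.05 and a log2 fold change of 1 or more in size. All adjusted p-values in the text are limma's. Every library is given for members called at 2 or more ages in a comparison of cell types or in the interaction, and for Lbr and Lmna. Genes outside the members were taken from those called, the largest changes first (up to 6 per comparison with a mean of 8 CPM or more). The members and the gene lists were chosen with earlier results of these data known. Same-numbered libraries deviated together in 5 of 55 pairs of groups (correlation above 0.1, range -0.142 to 0.193), so the replicate numbers were not taken to pair libraries. Among the 5 were P13 bipolars with cone bipolars (0.193), rod bipolars with cone bipolars (0.145) and P30 rods with P7 cones (0.158).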

Additional observations from a re-analysis of the deposited data

Results flagged for a closer look

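The change of Cbx5 between P7 and P30 differed between rods and cones by 1.43 on the log2 scale, tested as an interaction in limma (adjusted p = 0.00466). Hmgn3 differed by -2.55 (adjusted p = 0.000244): its change was -2.46 ± 0.23 in rods and 0.09 ± 0.23 in cones. Sun1 differed by -1.71 (adjusted p = 0.0139), with -0.97 ± 0.28 in rods and 0.74 ± 0.28 in cones, and it passed only with part of the libraries and settings tried, as stated beside its values in the report.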

How the results depend on the processing

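Across 127 results, 889 values under alternatives other than leaving out a library gave 811 with the same direction and side of the threshold, 68 weaker and 0 reversed; 520 values with a library left out gave 405, 110 and 3. The values not counted there were stronger. Among the 889, the setting without a minimum fold reused the main fit, so none of its 127 values could change side. That set is no evidence of stability. Dropping the filter on low values also left all 127 the same. Fitting the compared groups alone called 6 members for rods minus cones at P13, 1 at P30, 2 for age in rods and 1 for age in cones. Plain read totals called 19 for rods minus cones at P30, 22 for age in cones and 9 for the interaction. Limma voom on recovered reads, chosen after seeing the data, called 11 for rods minus cones at P7 and 6 for the interaction. Without a minimum fold 20 members changed with age in bipolars. The cause of these shifts was not tested. With each library left out, the counts ran from 3 to 8, 12 to 17 and 8 to 15 for rods minus cones at P7, P13 and P30, from 11 to 16, 16 to 22 and 14 to 16 for rods minus bipolars, from 7 to 12, 1 to 7 and 8 to 11 for age in rods, cones and bipolars, from 2 to 6 for the interaction, and stayed at 0 for rod minus cone bipolars. Lbr, rods minus cones, ran from -1.96 to 0.75 at P7 and from -1.43 to 0.84 at P13, so its direction rests on single libraries.

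With a replicate block the counts were 21 for rods minus bipolars at P13 and 6 for age in cones, and unchanged in the other 9 comparisons; the call on Hmgb2 for rods minus bipolars at P13 was lost (adjusted p = 0.0582). The planned edgeR test was not run, since the deposited unit is log2. Some libraries were at or near the floor of 3 reads: Lmna had 0 reads in 2 rod libraries, Lbr 3 in 1 cone library, and Samd7 and Samd11 0 in 1 bipolar library each.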

Other observations

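Several chromatin genes outside the members moved with age in bipolars. Zbtb4, a reader of methylated DNA, had 271 and 306 CPM at P30, against 35.6 and 35.5 CPM at P7 (3.02 ± 0.20, adjusted p = 6.23e-08). Phc1, a subunit of Polycomb repressive complex 1, had 45.3 and 45.1 CPM at P30, against 156 and 172 CPM at P7 (-1.86 ± 0.21, adjusted p = 1.78e-05). The P30 bipolar libraries are those with the higher marker sums of Müller glia, microglia, vascular and red blood cells. The part of these in the changes of Zbtb4 and Phc1, or of Syne1 in bipolars, was not tested. Between the bipolar types, Chd7, a chromatin remodeller, was at 9.35 and 8.07 CPM in rod bipolars, against 45.9 and 39.9 CPM in cone bipolars (-2.30 ± 0.26, adjusted p = 5.43e-05). That call was lost with voom on recovered reads. Both rod libraries of P13 had 297 CPM of Chd7, and the part of rod RNA in the difference was not tested. Uhrf1, which was not tested, stood at 8.03 and 0.0504 CPM in the rod bipolar libraries and Dnmt3b at 8.54 and 0.110 CPM in the rod libraries of P7.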
